A study of Mus musculus with 48 samples.

Results

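Transcripts of 6 steroid hormone receptors were followed in RNA of the mouse preoptic area that was precipitated with tagged ribosomes of GnRH neurons or left behind. The genes are Esr1, Esr2, Pgr, Nr3c1, Nr3c2 and Gpr30. They were chosen by name from the 23284 genes of the deposited table, where Gpr30 stands under its older symbol (the current one is Gper1), and all 6 passed the filter on low counts. Males homozygous for GnRH-Cre were bred to females homozygous for a floxed-stop L10a-GFP allele, so that offspring carried a GFP-tagged ribosomal protein L10a in the neurons that make gonadotropin-releasing hormone (GnRH). The GFP immunoprecipitate (IP) holds RNA bound to tagged ribosomes, and the GnRH-depleted supernatant holds the RNA that the IP left behind. Females were young (prepubertal in the series' design text) or adult in diestrus, and had prenatal treatment with vehicle or with dihydrotestosterone (DHT). This gave 8 groups. Each holds 6 libraries (young vehicle, young DHT and adult DHT, in IP and in supernatant) or 5 (adult vehicle, in both). A further IP and a further supernatant came from the preoptic area of young floxed L10a-GFP mice without Cre, labelled as a negative control with the prenatal treatment NoGFP (1 library each, not replicated). The labels call the libraries biological replicates and do not say whether each is 1 animal or a pool, so the p-values measure the spread between these libraries. A Cre that is active outside GnRH neurons would also tag other cells, and an IP keeps some untagged RNA, as the no-Cre pair shows.

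Totals per library lay between 28672556 and 47054029 counts for the 23 IPs and between 28136000 and 55479451 for the 23 supernatants. Levels are given as CPM, the count scaled to its library total. The summed level of 5 GnRH neuron markers (Gnrh1, Six6, Isl1, Kiss1r and Prokr2) lay between 759 and 16390 CPM in the IP libraries, between 104 and 136 CPM in the supernatants and at 161 CPM in the no-Cre IP. The share of tested genes with no count was larger in adult IP libraries (medians of 9.97% with vehicle and 9.58% with DHT) than in young ones (6.10% and 5.37%), and was at most 1.31% in any supernatant. The 10 libraries with the last sample numbers in the labels, 5 supernatants and 5 IPs, were all young. The labels do not say what these numbers stand for. Results that rest on those libraries are given with and without them.

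Steroid hormone receptors are mostly transcription factors of the nuclear receptor family. Without hormone, several of them are held in the cytoplasm by Hsp90 and its co-chaperones. With hormone, they bind response elements in DNA and recruit coactivators or corepressors. Esr1 and Esr2 encode estrogen receptors alpha and beta, Pgr the progesterone receptor, Nr3c1 the glucocorticoid receptor and Nr3c2 the mineralocorticoid receptor, which also binds corticosterone with high affinity. Gpr30 encodes a G protein-coupled receptor that responds to estradiol at the membrane. In the preoptic area, estrogen receptor alpha and the progesterone receptor are known from neurons that relay gonadal feedback, among them kisspeptin neurons, while GnRH neurons themselves are known for estrogen receptor beta. DHT is an androgen that cannot be converted to an estrogen by aromatase.

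The stretch before the start site is shown for the members that were tested together for a difference with age. The RefSeq (GRCm38.p6) windows at hand covered 5 of the 6 genes, with 6 start sites in all and none for Nr3c1. Windows of 200 bases before each start site were searched on both strands. Capitals mark GC boxes (GGGCGG or its reverse complement CCGCCC), a common element of promoters that lack a TATA box. Bases that GENCODE M21 places in an exon of the gene were left out of the print: 3 bases for Esr1, 42 for Nr3c2 and 28 for Gpr30, and all 200 for a first Esr1 start site.
Esr1 (second start site), chr10:4709958-4710154, plus strand: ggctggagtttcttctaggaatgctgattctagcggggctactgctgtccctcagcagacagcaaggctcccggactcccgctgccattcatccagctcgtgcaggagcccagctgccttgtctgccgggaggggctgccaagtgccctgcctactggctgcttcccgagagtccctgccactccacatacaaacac
Esr2, chr12:76177260-76177459, minus strand: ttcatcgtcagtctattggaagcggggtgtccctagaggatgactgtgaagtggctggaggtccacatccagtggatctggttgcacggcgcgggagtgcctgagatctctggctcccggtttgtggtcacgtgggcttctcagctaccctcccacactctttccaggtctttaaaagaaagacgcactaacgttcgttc
Pgr, chr9:8899633-8899832, plus strand: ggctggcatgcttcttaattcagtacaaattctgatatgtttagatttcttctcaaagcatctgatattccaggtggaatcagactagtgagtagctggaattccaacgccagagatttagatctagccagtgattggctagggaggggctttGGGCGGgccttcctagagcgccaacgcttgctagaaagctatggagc
Nr3c2, chr8:76902130-76902287, plus strand: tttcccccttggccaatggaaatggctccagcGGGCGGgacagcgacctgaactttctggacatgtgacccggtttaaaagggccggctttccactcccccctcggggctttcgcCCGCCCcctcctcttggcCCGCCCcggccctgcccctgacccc
Gpr30 (Gper1), chr5:139422979-139423150, plus strand: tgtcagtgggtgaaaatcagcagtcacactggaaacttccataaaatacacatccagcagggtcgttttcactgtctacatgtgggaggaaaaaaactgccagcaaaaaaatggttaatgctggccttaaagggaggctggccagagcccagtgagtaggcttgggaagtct
A GC box was found for Pgr, whose first base lies at -47 from the start site, and for Nr3c2 at -168, -85 and -67. Of all 32851 windows of this length, 31.0% hold a GC box. Neither AGGTCA, the core of the estrogen response element, nor AGAACA, the core of the glucocorticoid response element, was found on either strand in any of the 6 windows. These letters were present in 11.4% and 12.9% of all windows. The windows differ in base composition: Nr3c2 had 13 CpG dinucleotides and a GC content of 68.5%, Esr2 10 and 55.0%, the second Esr1 window 6 and 61.0%, Pgr 4 and 47.0%, Gpr30 2 and 49.5%, against medians of 5 and 53.0% over all windows.

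In GENCODE M21 (GRCm38), Esr1 lies on chromosome 10 from 4611593 to 5005614 (plus strand, 19 merged exons), Esr2 on chromosome 12 from 76120419 to 76177259 (minus strand, 10 merged exons) and Pgr on chromosome 9 from 8899833 to 8968611 (plus strand, 8 merged exons). Nr3c1 lies on chromosome 18 (minus strand, 13 merged exons), Nr3c2 on chromosome 8 from 76899442 to 77245012 (plus strand, 13 merged exons) and Gpr30 on chromosome 5 from 139423151 to 139427800 (plus strand, 3 merged exons). Nr3c2 was the only member whose exons overlap those of another annotated gene, a noncoding RNA on the opposite strand that covers 247 bases (3.82% of the Nr3c2 exons). The library kit does not mark strand, so reads from that stretch cannot be told apart.

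Nr3c1 was the most abundant of the 6 in both fractions. Divided by the kilobases of its merged exons, its level in the 23 supernatants was 8.31 ± 1.01 CPM per kb (SD, n = 23), followed by Pgr at 3.01 ± 0.366, Nr3c2 at 1.39 ± 0.268, Esr1 at 1.21 ± 0.389, Gpr30 at 0.791 ± 0.300 and Esr2 at 0.385 ± 0.140. The order of Esr1 and Nr3c2 depended on the length used: over the longest coding transcript Esr1 stood at 2.62 and Nr3c2 at 1.52 CPM per kb, since the annotated Esr1 exons add up to 13661 bases and its longest coding transcript to 6339. In the IP libraries Nr3c1 (5.66 ± 2.16 CPM per kb of merged exons, SD, n = 23) and Pgr (3.23 ± 1.24) were again the highest 2, and Esr2 (0.422 ± 0.669) the lowest.

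**Figure D1:**
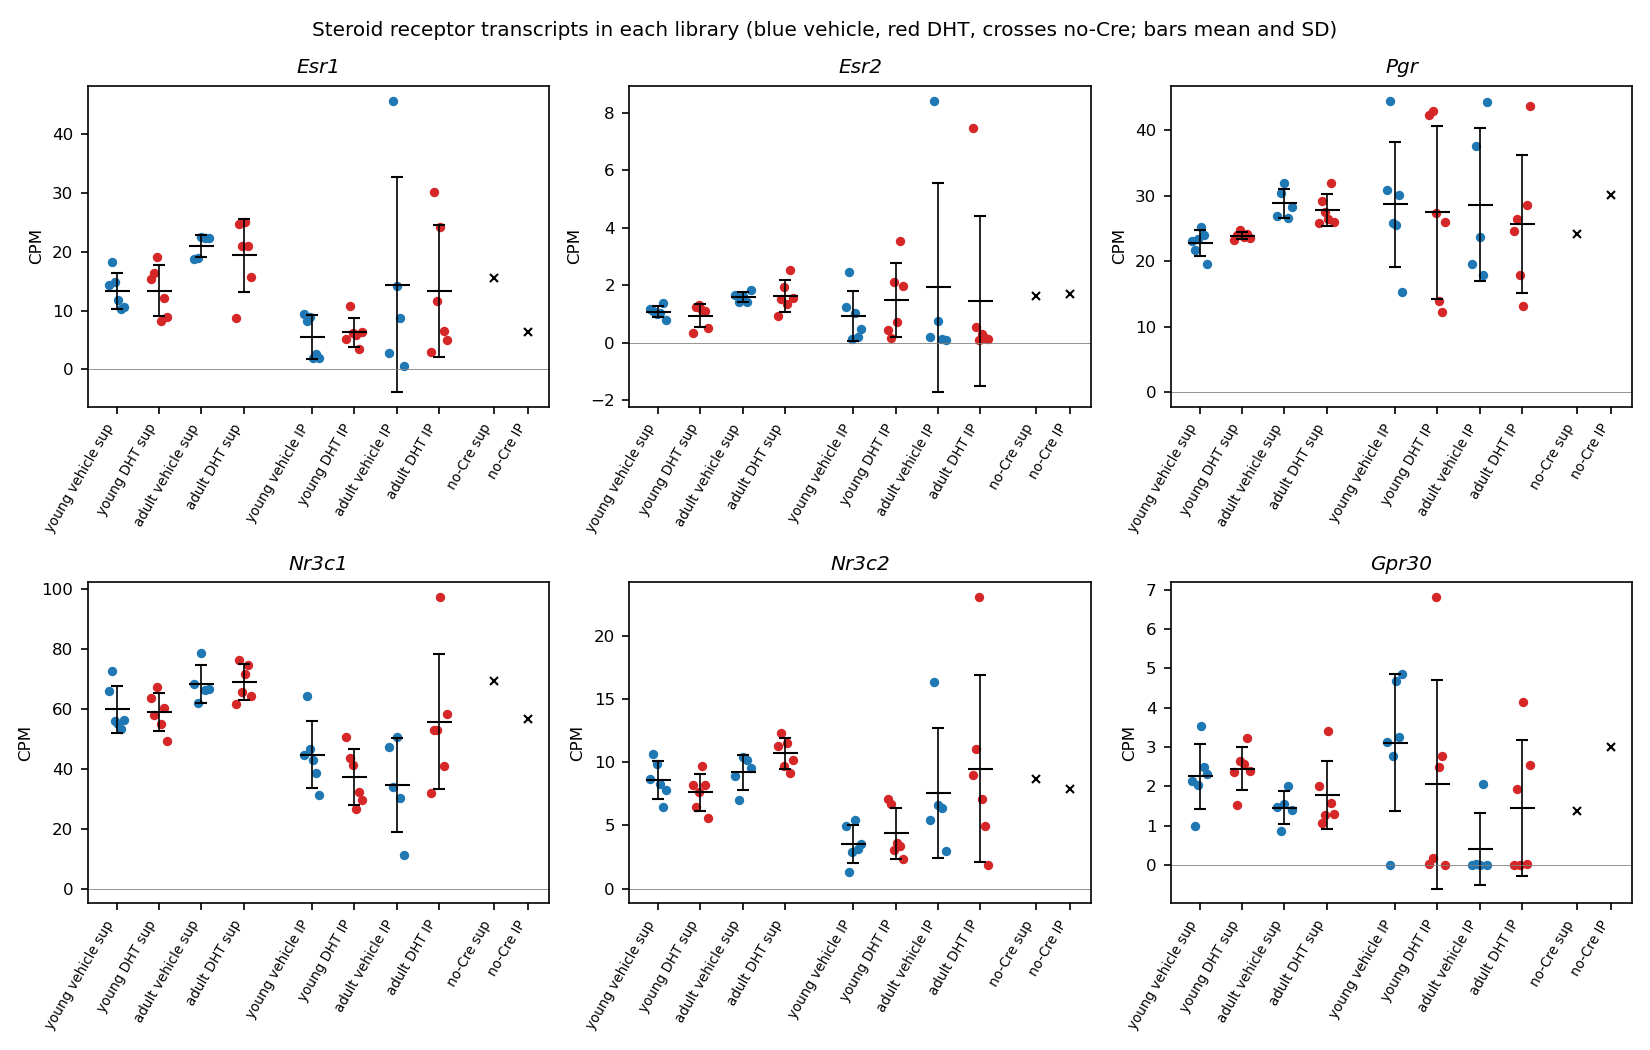
Level of each receptor transcript in CPM (vertical axis) in every library, by group (horizontal axis), with vehicle in blue, DHT in red and the no-Cre pair as crosses. Horizontal and vertical bars are the mean and SD of a group. Pgr in the 11 adult supernatants (25.9 to 32.0 CPM) lies above all 12 young ones (19.5 to 25.2 CPM), while the IP groups spread widely. The share of all genes separated in this way was not computed.

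Esr1 in the supernatants of young mice had a lowest, median and highest level of 10.2, 13.1 and 18.3 CPM with vehicle and of 8.18, 13.7 and 19.2 CPM with DHT. The 5 adult vehicle supernatants stood at 18.8, 19.0, 22.5, 22.3 and 22.35 CPM, and the 6 adult DHT supernatants at 8.65, 21.0 and 25.15 CPM (lowest, median, highest). Adult vehicle supernatants were thus all above the young vehicle ones, by a narrow gap (18.3 to 18.8 CPM), whereas adult DHT replicate 1 lay among the lowest young libraries. How many of all genes separate these 2 vehicle groups was not computed. In the IP, Esr1 ranged from 1.89 to 9.47 CPM (median 5.33) in young vehicle and from 3.496 to 10.8 CPM (median 5.96) in young DHT mice. The 5 adult vehicle IPs held 2.77, 45.8, 14.2, 8.69 and 0.550 CPM, an 83.2-fold range that covers the whole range of the other groups, and the adult DHT IPs ran from 2.95 to 30.3 CPM (median 9.02).

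Esr2 was low in every group. Its supernatant levels ran from 0.771 to 1.38 CPM (median 1.07) in young vehicle, from 0.344 to 1.31 (median 1.12) in young DHT and from 0.919 to 2.54 (median 1.53) in adult DHT mice. The 5 adult vehicle supernatants held 1.66, 1.41, 1.63, 1.41 and 1.82 CPM, all just above the highest young vehicle library at 1.38 CPM. For this separation too, the share over all genes was not computed. In the IP, 2 adult libraries stood far above the rest of their groups: adult vehicle replicate 2 at 8.43 CPM beside 0.209, 0.746, 0.125 and 0.0786 CPM, and adult DHT replicate 1 at 7.46 CPM in a group with a median of 0.223 CPM and a lowest value of 0.105 CPM. Young IPs ran from 0.119 to 2.45 CPM with vehicle (median 0.757) and from 0.152 to 3.54 CPM with DHT (median 1.34).

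Pgr was the steadiest member in the supernatant. Young vehicle libraries ran from 19.5 to 25.2 CPM (median 23.2) and young DHT libraries from 23.3 to 24.8 CPM (median 23.8). Adult vehicle libraries held 26.9, 30.4, 31.9, 26.7 and 28.2 CPM, and adult DHT libraries 25.9 to 32.0 CPM (median 26.9). No adult supernatant overlapped a young one. The share of all genes with no overlap between such groups, here or for Esr1 and Esr2 above, was not computed. The 4 IP groups overlapped almost fully, with medians of 27.9 (young vehicle, 15.3 to 44.5), 26.65 (young DHT, 12.2 to 42.8), 23.7 (adult vehicle, 17.9 to 44.2) and 25.5 CPM (adult DHT, 13.2 to 43.7).

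Nr3c1 in the supernatant ran from 53.25 to 72.7 CPM (median 56.0) in young vehicle, from 49.4 to 67.3 (median 59.1) in young DHT and from 61.45 to 76.3 (median 68.6) in adult DHT mice, with adult vehicle libraries at 68.1, 61.8, 78.6, 66.3 and 66.7 CPM. The adult and young ranges overlapped between 61.45 and 72.7 CPM. In the IP the medians were 43.8 CPM (young vehicle, 31.2 to 64.4), 36.8 (young DHT, 26.55 to 50.6) and 52.9 (adult DHT, 31.9 to 97.2). The 5 adult vehicle IPs held 47.3, 33.9, 50.5, 30.2 and 11.4 CPM, and the last of these was the lowest of all 46 libraries.

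Nr3c2 in the supernatant had medians of 8.45 CPM (young vehicle, 6.43 to 10.6), 7.92 (young DHT, 5.58 to 9.73) and 10.7 (adult DHT, 9.17 to 12.3), and adult vehicle values of 8.93, 6.99, 10.4, 10.2 and 9.52 CPM. The young and adult DHT ranges met only between 9.17 and 9.73 CPM. Young IPs were lower, from 1.32 to 5.42 CPM with vehicle (median 3.36) and from 2.38 to 7.06 CPM with DHT (median 3.498). Adult IPs were spread: 5.47, 16.4, 6.61, 6.38 and 3.01 CPM with vehicle, and 1.87 to 23.1 CPM with DHT (median 8.03).

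Gpr30 supernatant levels ran from 0.980 to 3.54 CPM (median 2.23) in young vehicle, from 1.51 to 3.23 (median 2.48) in young DHT and from 1.06 to 3.41 (median 1.44) in adult DHT mice, with adult vehicle libraries at 1.48, 0.859, 1.56, 2.01 and 1.39 CPM. In the IP it was detected unevenly: 7 of 23 libraries had no count and 10 had 3 counts or fewer. Only replicate 4 of the 5 adult vehicle IPs exceeded 3 counts, at 2.05 CPM. The other IP groups ran from 0 to 4.84 CPM (young vehicle, median 3.19), 0 to 6.81 CPM (young DHT, median 1.34) and 0 to 4.16 CPM (adult DHT, median 0.975).

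When the 8 group means of each gene were put in order, the ranges of every pair of neighbours overlapped for all 6 genes. Esr1 ran from adult vehicle supernatant (21.0 ± 1.89 CPM, SD, n = 5) to young vehicle IP (5.47 ± 3.70, SD, n = 6), Nr3c1 from adult DHT supernatant (69.0 ± 6.00, SD, n = 6) to adult vehicle IP (34.7 ± 15.6, SD, n = 5), and Nr3c2 from adult DHT supernatant (10.7 ± 1.19, SD, n = 6) to young vehicle IP (3.55 ± 1.49, SD, n = 6).

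Esr1 had a wide spread between replicates in both fractions, Esr2 in the IP, and Pgr a narrow one in the supernatant. The within-group coefficient of variation (CV) of Esr1 in the supernatant was 26.0%, and 95.3% of the 2447 genes of like level (a mean within 1.5-fold) had a lower one. In the IP it was 108%, with 99.5% of 2037 such genes lower. Pgr had a CV of 7.48% in the supernatant, and 5.78% of 2786 genes of like level had a lower one. For Nr3c1, Nr3c2, Esr2 and Gpr30 the supernatant CV was 10.4%, 15.3%, 29.1% and 35.0%, and between 34.5% and 73.1% of like genes had a lower one. The IP fraction was noisier for all 6, from 35.6% for Nr3c1 to 169% for Esr2. Of 1209 genes of like level, 91.9% had a lower CV than Esr2 there, while for Pgr, Nr3c1, Nr3c2 and Gpr30 the share was between 59.2% and 76.0%.

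**Figure D2:**
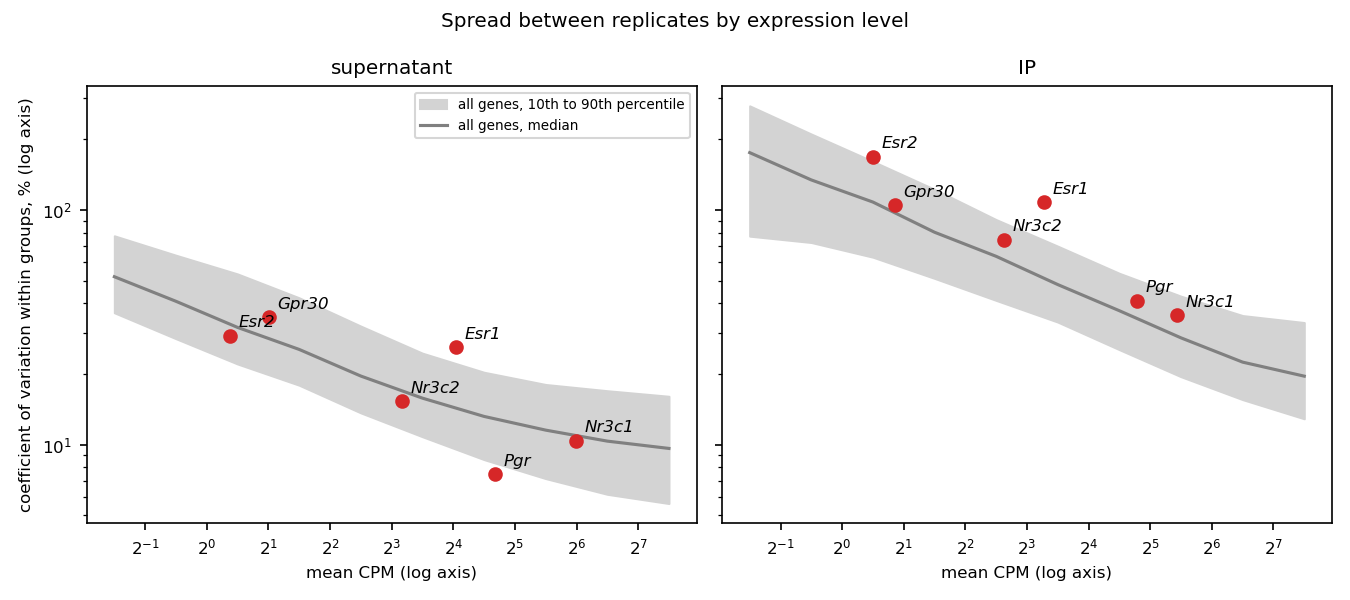
Within-group CV in percent (vertical log axis) against mean CPM (horizontal log axis) for the 6 receptors (red points) in supernatant (left) and IP (right). The grey band spans the 10th to 90th percentile of all genes at a level and the line their median. Esr1 lies above the band in both panels (26.0% and 108%), Esr2 in the IP (169%), and Pgr below it in the supernatant (7.48%).

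The comparison of IP with supernatant asks which transcripts are over- or under-represented in the precipitate, which also holds RNA carried over without tagged ribosomes. A lower IP value does not by itself show under-representation on the ribosomes of GnRH neurons. No receptor was called higher in the IP. Averaged over the 4 conditions, 3 of the 6 were lower: Nr3c1 at 43.1 against 64.0 CPM (1.46-fold lower, log2 fold change -0.55 ± 0.10 SE, adjusted p = 2.0e-05), Nr3c2 at 6.25 against 9.03 CPM (1.49-fold, -0.58 ± 0.19, adjusted p = 0.011) and Esr1 at 9.89 against 16.8 CPM (1.76-fold, -0.81 ± 0.27, adjusted p = 0.0127), by edgeR's quasi-likelihood test with Benjamini-Hochberg adjustment over 16660 genes. The same test called 46.1% of all genes (4065 higher and 3619 lower), so a share of 3 in 6 is near the background. Pgr (27.6 against 25.8 CPM, 0.15 ± 0.12, adjusted p = 0.342 in edgeR), Esr2 (1.44 against 1.31 CPM, 0.20 ± 0.46, adjusted p = 0.758) and Gpr30 (1.75 against 1.98 CPM, -0.41 ± 0.59, adjusted p = 0.601) did not pass. The approximate 95% interval of the Pgr difference was -0.09 to 0.39. This fit took IP and supernatant libraries as independent, so its p-values leave out a pairing of the 2 fractions.

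With each IP blocked with the supernatant of the same number, 5 of the 6 were called lower in edgeR: Esr2 then stood at -1.22 (adjusted p = 0.0474) and Gpr30 at -2.47 (adjusted p = 0.0146), beside -1.26 for Esr1, -0.61 for Nr3c1 and -0.77 for Nr3c2. The block also moved the split over all genes to 3530 higher and 5867 lower. For Esr2 the sign rested on the high adult libraries: without adult vehicle IP replicate 2 the value was -0.53 and without adult DHT IP replicate 1 it was -0.47 (adjusted p = 0.298 and 0.350 in edgeR). For Gpr30, leaving out adult vehicle IP replicate 4 moved the value to -1.81 (adjusted p = 0.0105). Without the 10 libraries of the last sample numbers, Nr3c1 was still called (-0.53, adjusted p = 0.00106), while Esr1 (-0.83, adjusted p = 0.052) and Nr3c2 (-0.55, adjusted p = 0.0673) had the same size and did not pass in a fit with fewer libraries.

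Within single conditions, edgeR called Nr3c2 lower in young vehicle mice (-1.27 ± 0.38, adjusted p = 0.0108), where 21.9% of all genes were called, and Nr3c1 lower in young DHT (-0.63 ± 0.20, adjusted p = 0.0215, 20.0% of all genes) and in adult vehicle mice (-0.88 ± 0.22, adjusted p = 0.00301, 24.0% of all genes). In adult DHT mice, where 21.5% of all genes were called, none of the 6 passed. Esr1 in young vehicle mice stood at -1.30 (adjusted p = 0.0785), and at -1.59 (adjusted p = 0.0196) with the replicate block. Without the last sample numbers, neither Nr3c2 in young vehicle mice (-1.42, adjusted p = 0.0533) nor Nr3c1 in young DHT mice (-0.53, adjusted p = 0.334) passed, and the latter was also lost without young DHT IP replicate 4 (-0.55, adjusted p = 0.0684). Nr3c1 in adult vehicle mice did not pass in a fit of its 2 groups alone (-0.89, adjusted p = 0.0703).

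The no-Cre pair gives the background of the precipitation. Its IP held Esr1 at 0.404 of the supernatant level (95% exact interval 0.343 to 0.475, counting error only), close to the ratio of 0.410 between the young vehicle group means. For Nr3c1 the no-Cre ratio was 0.818 (0.770 to 0.869) beside 0.748 with Cre, and for Pgr 1.24 (1.135 to 1.363) beside 1.26. The ratios of Esr1 and Pgr with Cre lay inside the no-Cre intervals, and that of Nr3c1 just below. The no-Cre IP levels of Esr1 (6.28 CPM), Pgr (30.1 CPM) and Nr3c1 (56.7 CPM) lay within the ranges of the young vehicle IPs. Summed pan-neuronal markers stood at 5263 CPM in the no-Cre IP and at a mean of 5145 CPM in young vehicle IPs. For oligodendrocyte markers these were 5403 and 4269 CPM. All other marker lists were lower in the no-Cre IP than in the young vehicle mean, among them preoptic neuron (230 and 351 CPM) and endothelial markers (9.89 and 24.0 CPM). For Nr3c2 the no-Cre IP held 7.88 CPM, above all 6 young vehicle IPs (1.32 to 5.42 CPM), and its ratio was 0.912 (0.771 to 1.08) beside 0.413. Esr2 (1.03, 0.705 to 1.51) and Gpr30 (2.18, 1.54 to 3.13) had ratios of 0.850 and 1.38 with Cre. The no-Cre supernatant level of Esr2 (1.64 CPM) lay above all 6 young vehicle supernatants (0.771 to 1.38 CPM). With 1 library in each fraction, these differences have no replicate check.

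**Figure D3:**
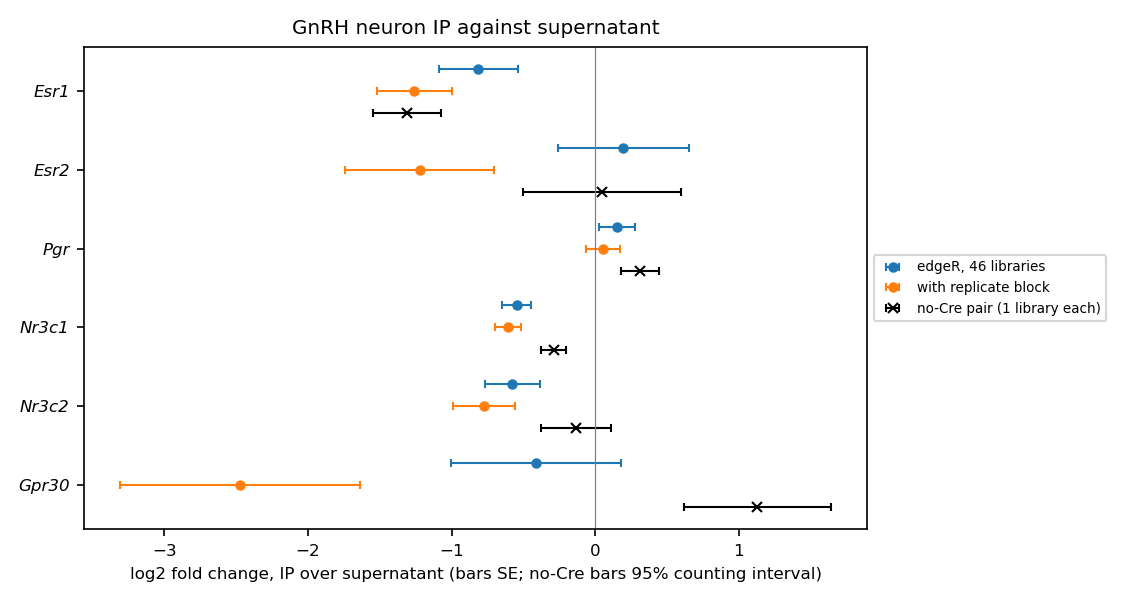
Log2 fold change of IP over supernatant (horizontal axis) for each receptor, from edgeR over 46 libraries (blue), from the fit with the replicate block (orange), both with SE bars, and in the no-Cre pair (black crosses, bars of 95% counting intervals). Esr1 lies at -0.81, -1.26 and -1.31 in these, and under the block Esr2 goes from 0.20 to -1.22 and Gpr30 from -0.41 to -2.47.

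Among the partners of these receptors, the corepressor gene Ncor1 (272 against 105.5 CPM, 1.27 ± 0.12) was higher in the IP, and the methyltransferase gene Prmt1 (-0.81 ± 0.07) and Pelp1 (-1.31 ± 0.18) lower. Of 15 coregulators tested, 5 were called higher and 6 lower in edgeR, with a median log2 fold change of -0.06 beside -0.0032 over all genes, of which 24.4% were higher and 21.7% lower. Receptor chaperones were mixed, with 2 of 13 higher (Ppid 0.37 ± 0.05 and Hsp90aa1 0.36 ± 0.06) and 5 lower (among them Ptges3 -0.46 ± 0.06 and Fkbp4 -0.38 ± 0.05). Of 17 genes known as glucocorticoid targets, 8 were lower and 2 higher, with a median of -0.16. Ddit4, a brake on mTOR signalling, fell by 1.98 ± 0.11 on the log2 scale (8.999 against 37.5 CPM), and the clock gene Per1 fell by 0.97 ± 0.15. Estrogen targets had 3 of 12 lower (Igf1r, Ccnd1 and Bcl2) and none higher. Membrane progestin receptors had 3 of 9 lower (Pgrmc2, Paqr4 and Paqr7) and 1 higher (Pgrmc1, 0.48 ± 0.07), and Esrra (-1.06 ± 0.10) and Esrrb (-2.30 ± 0.58) were the 2 of 3 estrogen-related receptors that were lower. Of 5 tested genes for corticosteroid access, Scnn1a alone was lower (-1.09 ± 0.45). The shares called among estrogen targets, membrane progestin receptors and genes for corticosteroid access lay below the 46.1% of all genes. With the replicate block, 7 estrogen targets, 6 membrane progestin receptors and 3 genes for corticosteroid access were lower, and without the last sample numbers Ccnd1 was the only estrogen target that was, and Scnn1a and Paqr7 were not called. Fkbp5 stands in both the chaperone and the glucocorticoid list, and Nrip1 in both the coregulator and the estrogen list. Beside these, 7 of 8 astrocyte and 5 of 8 oligodendrocyte markers were lower in the IP and 4 of 5 GnRH neuron markers higher. Other lists were mixed: 2 of 7 pan-neuronal markers were higher and 1 lower, for preoptic neurons 3 of 7 and 1, and for microglia 1 of 8 and 2. For mural and ependymal cells 1 of 6 markers each was lower, and no endothelial or oligodendrocyte precursor marker passed. The part of cell composition in the receptor differences was not tested.

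The comparison of adult with young mice addresses maturation. In the supernatant, averaged over the treatments, all 6 receptors differed with age: Esr2, Esr1, Nr3c2, Pgr and Nr3c1 were higher in adults and Gpr30 lower, where 36.1% of 16286 genes were called (3075 higher, 2799 lower). Esr2 rose from 1.01 to 1.61 CPM (1.58-fold, 0.66 ± 0.20, adjusted p = 0.0106) and Esr1 from 13.3 to 20.2 CPM (1.49-fold, 0.57 ± 0.16, adjusted p = 0.0061) by edgeR's quasi-likelihood test. Pgr rose from 23.4 to 28.3 CPM (1.20-fold, 0.27 ± 0.05, adjusted p = 0.000488), the smallest adjusted p of the 6, with no overlap between 11 adult and 12 young libraries. How many of all genes separate these libraries was not computed, so the separation is not read as particular to Pgr. Nr3c2 rose from 8.11 to 9.95 CPM (1.22-fold, 0.28 ± 0.09, adjusted p = 0.0218) and Nr3c1 from 59.4 to 68.6 CPM (0.19 ± 0.06, adjusted p = 0.0185). Gpr30 fell from 2.35 to 1.61 CPM (1.47-fold lower, -0.56 ± 0.20, adjusted p = 0.0311), a call that was lost without any of 5 libraries, namely adult DHT replicates 2 and 3, adult vehicle replicate 2, young DHT replicate 5 and young vehicle replicate 4 (-0.47 to -0.52, adjusted p = 0.0533 to 0.067). In bulk RNA, fewer cells of a type and less RNA per cell cannot be told apart.

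Esr2 and Pgr were the members whose age difference also passed within the sample numbers. With a term for the last 10 sample numbers, edgeR gave 0.63 for Esr2 (adjusted p = 0.0485) and 0.23 for Pgr (adjusted p = 0.006545), and without those libraries 0.64 (adjusted p = 0.0449) and 0.25 (adjusted p = 0.00685). The other 4 kept their sign and did not pass in either. Esr1 dropped to 0.32 with the term (adjusted p = 0.103) and 0.33 without the libraries (adjusted p = 0.11), Nr3c1 to 0.10 and 0.12 (0.235 and 0.196), Nr3c2 to 0.21 and 0.24 (0.156 and 0.066), and Gpr30 to -0.47 and -0.45 (0.129 and 0.185). Over all genes, 28.6% were called with the term and 27.7% without the libraries. Among young supernatants, Esr1 stood at 10 ± 1.55 CPM (SD, n = 5) in the last sample numbers and at 15.7 ± 2.49 CPM (SD, n = 7) in the others, and their ranges of 8.18 to 12.2 and 11.8 to 19.2 CPM met only at the edge. For Pgr the same libraries held 22.97 ± 1.95 and 23.6 ± 1.18 CPM.

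By treatment, Pgr was called in both (0.31 ± 0.08, adjusted p = 0.00636 with vehicle, and 0.22 ± 0.08, adjusted p = 0.0401 with DHT). With vehicle it was the only one of the 6, beside 20.3% of all genes, and Esr1 stood at 0.63 ± 0.23 (adjusted p = 0.052 in edgeR). With DHT, beside 19.9% of all genes, Esr2 (0.79 ± 0.28, adjusted p = 0.0438) and Nr3c2 (0.49 ± 0.13, adjusted p = 0.00978) were called too. The DHT calls of Esr2 and Pgr were each lost in 8 of 12 fits that left out 1 library (adult DHT replicates 2, 3, 5 and 6 and young DHT replicates 1, 4, 5 and 6; adjusted p up to 0.119 and 0.107), with the term for the last sample numbers (0.128 and 0.182) and without those libraries (0.215 and 0.218). Nr3c2 with DHT passed in all 12 such fits and without those libraries (0.52, adjusted p = 0.0279), and not with the term (0.40, adjusted p = 0.0767). Nr3c2 with vehicle was at 0.07 ± 0.14. Whether the age differences differ between the treatments was not tested.

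**Figure D4:**
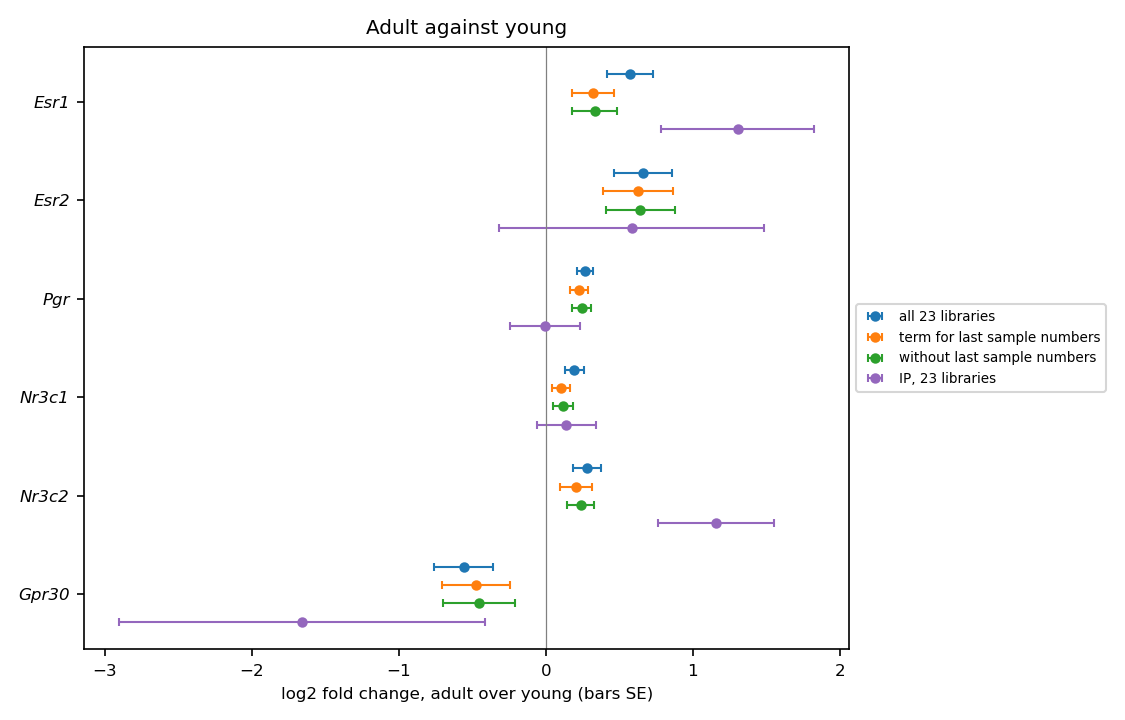
Log2 fold change of adult over young (horizontal axis, SE bars) for each receptor in supernatant, over all 23 libraries (blue), with a term for the last sample numbers (orange) and without those libraries (green), and in the 23 IP libraries (purple). Esr2 and Pgr keep their supernatant values (0.66, 0.63, 0.64 and 0.27, 0.23, 0.25), whereas Esr1 goes from 0.57 to 0.32 and 0.33.

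Of 12 genes known to respond to estrogen, 4 were higher in adult supernatant and none lower. Over all genes 36.1% were called (18.9% higher and 17.2% lower), and the list's median was 0.09 beside 0.02, with 5 members below 0 that did not pass. Kiss1, which encodes kisspeptin, rose from 4.67 to 19.8 CPM (2.07 ± 0.27, adjusted p = 2.9e-06 in edgeR), Greb1 from 0.578 to 1.60 CPM (1.46 ± 0.28), the enkephalin gene Penk from 239 to 352 CPM (0.56 ± 0.12) and the corepressor gene Nrip1 from 16.1 to 20.5 CPM (0.33 ± 0.10). Of 9 membrane progestin receptors and partners, 4 were higher and none lower (Paqr6 0.79 ± 0.16, Pgrmc2 0.35 ± 0.06, Paqr9 0.23 ± 0.07 and Paqr4 0.17 ± 0.06), with a median of 0.15, and the same 4 were called without the last sample numbers. Without those libraries 5 estrogen targets were called, all higher: Kiss1, Greb1, Penk, Ctsd and Bcl2. Glucocorticoid targets went both ways, with 6 of 17 lower and 3 higher and a median of -0.08. Ddit4 fell by 0.71 ± 0.10, Cdkn1a by 0.78 ± 0.13, the metallothionein gene Mt1 by 0.56 ± 0.10 and Tsc22d3, which encodes the glucocorticoid-induced leucine zipper, by 0.41 ± 0.06. The 3 that rose were Plin4 (2.21 ± 0.42), Pdk4 (1.00 ± 0.20) and Sgk1 (0.63 ± 0.16), all named after their values were seen. Without the last sample numbers 8 were lower and 2 higher. Of 15 coregulators 3 were higher (Carm1, Ncoa1 and Nrip1) and 1 lower (Phb2), of 13 chaperones 2 were higher (Hspa8 and Hsp90ab1) and 1 lower (Stub1), of 3 estrogen-related receptors Esrrg was higher, and of 5 genes for corticosteroid access none passed. With the term for the last sample numbers and without those libraries, Nrip1, Sgk1, Hsp90ab1, Stub1, Esrrg and the target gene Angptl4 were no longer called.

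Markers of some cell types differed with age in the same supernatants, where 36.1% of all genes were called (18.9% higher and 17.2% lower). All 8 oligodendrocyte markers were lower in adults (median -1.03), with a summed level of 4518 to 6829 CPM in young and 2091 to 4560 CPM in adult libraries. Of 5 oligodendrocyte precursor markers 3 were lower, of 7 endothelial markers 3 were lower (summed 9.46 to 30.1 CPM in young and 5.67 to 28.3 CPM in adults), of 6 mural markers 2 were lower and of 8 microglia markers 4 were higher (47.2 to 99.7 and 53.8 to 108 CPM). Pan-neuronal markers had 2 of 7 higher and 3 lower, with summed levels of 4718 to 5266 CPM in young and 4666 to 5556 CPM in adults. Of 7 preoptic neuron markers 2 were higher and none lower (median 0.23, summed 153 to 302 CPM in young and 180 to 406 CPM in adults). Of 8 astrocyte markers 1 was higher and 1 lower, of 5 GnRH neuron markers 1 was higher and 1 lower, and of 6 ependymal markers none passed. The endothelial, mural and preoptic neuron counts lie near the share of all genes. None of these lists had a marker at 0 in all libraries of a supernatant group. Their part in the receptor differences was not tested.

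In the IP, adult and young mice differed in 15.1% of 15890 genes, and 1 of the 6 receptors passed. Nr3c2 rose from 3.96 to 8.54 CPM (2.23-fold, 1.16 ± 0.39, adjusted p = 0.0463 in edgeR). This call was lost in 15 of 23 fits that each left out 1 library (0.90 to 1.20 in these, adjusted p up to 0.135), with the replicate block (0.88, adjusted p = 0.202) and without the last sample numbers (0.98, adjusted p = 0.27). Within a fraction the block groups libraries of different groups by replicate number, which is an arbitrary grouping. Esr1 stood at 1.31 ± 0.52 (5.88 against 13.9 CPM, adjusted p = 0.0964), and at 1.46 without adult vehicle IP replicate 5 (adjusted p = 0.0332). It was smaller and not called with the term for the last sample numbers (0.97, adjusted p = 0.388 in edgeR) and without those libraries (1.02, adjusted p = 0.415). With the block it stood at 0.70 (adjusted p = 0.384). Among the others, Esr2 stood at 0.59 ± 0.90, Nr3c1 at 0.14 ± 0.20, Pgr at -0.0037 ± 0.24 and Gpr30 at -1.66 ± 1.25. With the term for the last sample numbers and without those libraries, Pgr stood at -0.27 and -0.28, and Nr3c1 at -0.047 in both. Young IPs of the last sample numbers held Pgr at 19.5 ± 8.0 CPM (SD, n = 5) and the other young IPs at 34.2 ± 8.67 (SD, n = 7). For Nr3c1 they held 31.6 ± 4.50 and 47.7 ± 7.93 CPM. Mean Esr1 and Nr3c2 were also lower in the last sample numbers, and mean Esr2 and Gpr30 higher. Without adult vehicle IP replicate 4, Gpr30 stood at -4.40 (adjusted p = 0.0344 in edgeR). Endothelial markers, summed, ranged from 0.106 to 39.4 CPM in adult and from 10.6 to 40.2 CPM in young IPs, and their part in the Gpr30 values was not tested. The difference between the age effects in IP and supernatant passed for none of the 6 (4.52% of 16660 genes passed, or 753). It was closest for Nr3c2, at 0.89 ± 0.38 (adjusted p = 0.204 in edgeR).

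Over all genes, 8.3% were called higher and 6.82% lower in adult IPs. Of the 7 lists, the chaperones of the receptors had the largest share called in the IP, with 9 of 13 higher in adults and none lower, at a median of 0.47 beside 0.00 over all genes. The heat shock protein genes Hspa8 (2304 to 4321 CPM, 0.94 ± 0.12), Hsp90ab1 (1041 to 1912 CPM, 0.91 ± 0.13), Hsp90aa1 (817 to 1240 CPM, 0.63 ± 0.11) and Hspa4 (34.9 to 73.1 CPM, 1.11 ± 0.19) rose. Without the last sample numbers 8 of the 13 were called higher, where 9.03% of all genes were called. Kiss1 (1.94 ± 0.33), Penk (0.73 ± 0.18) and the protease gene Ctsd (0.42 ± 0.13) were the 3 estrogen targets of 12 that were higher. Of 17 glucocorticoid targets 4 were lower (Tsc22d3, Mt1, Mt2 and Cdkn1a, by 0.70 to 1.07 on the log2 scale) and Fkbp5, a co-chaperone that lowers the affinity of the glucocorticoid receptor, was higher (0.60 ± 0.19). Of 15 coregulators 2 were higher, Prmt1 (0.51 ± 0.11) and Ncoa1 (0.84 ± 0.22), and 2 lower, among them Ncor1 (-1.11 ± 0.24). Fkbp5 and Ncoa1 were not called with the term for the last sample numbers or without those libraries, where 6 glucocorticoid targets were lower and none higher. No membrane progestin receptor, estrogen-related receptor or gene for corticosteroid access passed. In the adult IPs the summed GnRH neuron markers ranged from 759 to 16390 CPM and in the young ones from 1895 to 7005 CPM, 6 of 8 oligodendrocyte markers were lower, and 3 of 7 pan-neuronal and 2 of 7 preoptic neuron markers were higher. Of 5 oligodendrocyte precursor markers 2 were lower, of 8 astrocyte markers 1 was lower and of 8 microglia markers 1 was higher. No GnRH neuron, endothelial, mural or ependymal marker passed. The part of the markers in these differences was not tested.

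The effect of the prenatal androgen was taken at each age and in each fraction. None of the 6 receptors passed in any of the 4. Over all genes, edgeR called 0% in young supernatant, 0% in adult supernatant, 0% in young IP and 0.00629% in adult IP (1 gene), while unadjusted p was under 0.05 for 747, 338, 239 and 1318 genes. DESeq2 called 1, 0, 2 and 151 genes and limma-voom 0, 1, 0 and 0 in the same order. The supernatant intervals limit the size of a difference: for Pgr the log2 fold change was 0.05 (approximate 95% interval -0.10 to 0.19) in young and -0.05 (-0.20 to 0.11) in adult mice, and for Nr3c1 -0.04 (-0.21 to 0.13) and 0.02 (-0.16 to 0.20). Those of Esr1 were wider, at -0.01 (-0.44 to 0.42) and -0.11 (-0.56 to 0.33), and so were those of Esr2, at -0.22 (-0.76 to 0.33) and 0.04 (-0.51 to 0.59), and of Gpr30, at 0.09 (-0.44 to 0.63) and 0.29 (-0.28 to 0.86). Nr3c2 stood at -0.20 (-0.45 to 0.06) in young and at 0.22 (-0.04 to 0.49) in adult supernatant.

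In the IP the intervals were several times wider. The smallest p was that of Nr3c1 in adult IP, where the DHT libraries averaged 55.7 and the vehicle libraries 34.7 CPM, with overlapping ranges. Its log2 fold change was 0.67 ± 0.29 (adjusted p = 0.518 in edgeR). The young IP value of the same gene was -0.27 ± 0.28. Esr1 stood at 0.21 ± 0.71 in young and -0.15 ± 0.75 in adult IP, and Pgr at -0.07 ± 0.33 and -0.18 ± 0.35. Esr2 (0.73 ± 1.25 and -0.44 ± 1.30), Nr3c2 (0.29 ± 0.54 and 0.30 ± 0.57) and Gpr30 (-0.62 ± 1.66 and 1.73 ± 1.82) had errors larger than or near their values, so differences of such a size were not detectable in these libraries. In all 7 pathway lists, no gene passed in any of the 4 comparisons.

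**Figure D5:**
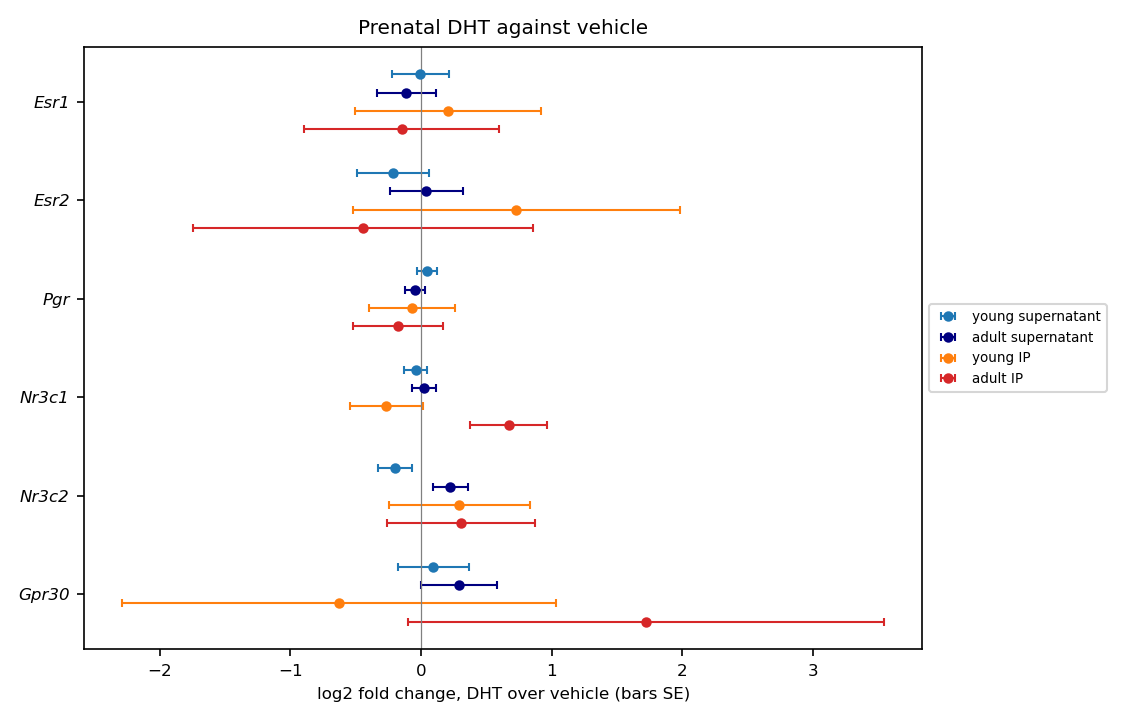
Log2 fold change of prenatal DHT over vehicle (horizontal axis, SE bars) for each receptor in young and adult supernatant (blue shades) and in young and adult IP (orange and red). Supernatant values of Pgr and Nr3c1 lie within 0.05 of 0, while IP bars of Gpr30 span more than a log2 unit on each side.

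Across the 23 supernatants, each receptor was set beside the 3 genes whose log2 CPM followed it best among 12638 genes with a mean of at least 1 CPM. The points share libraries, depth, the age difference and the split by sample numbers, so the correlations are descriptions. Esr1 ran with Adnp (Pearson r = 0.93, Spearman rho = 0.88), Irs4 (0.92 and 0.88) and Usp47 (0.88 and 0.81). Within the 12 young libraries r was 0.91, 0.95 and 0.96, and within the 11 adult ones 0.93, 0.80 and 0.68. The young libraries include 5 of the last sample numbers, in which mean Esr1 was lower, and the adult ones include none. Correlations within the sample numbers of the young libraries were not computed. Nr3c1 ran with Fastkd5 (r = 0.93), Avl9 (0.92) and Gosr1 (0.91), and Nr3c2 with Erbb2ip (0.83), Prickle2 (0.83) and Plekhm3 (0.82). For Pgr the best were Ankrd6 (0.89), Cdk18 (0.87) and Adal (0.87), whose r within young libraries was lower (0.58, 0.41 and 0.51). Esr2 reached 0.79 with Ryr2, 0.75 with Fbxl21 and 0.73 with Nt5c1a, and Gpr30 0.76 with Bace2, 0.76 with Marveld1 and 0.75 with Cldn5, the last an endothelial tight junction gene that is also in the endothelial marker list.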

How the data were processed

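Polyadenylated RNA of the preoptic area was sequenced after ribosome affinity purification, with a kit that does not mark strand, in 48 libraries. The authors' deposited table holds estimated counts for 23284 genes, not normalized, and 98.49% of its values are exactly whole, with no tolerance. Per the submitters' processing notes, tools included TopHat2 2.0.13, Bowtie2 2.2.1, HTSeq 0.6.1, Cuffdiff 2.1.1 and DESeq2 1.14.1 on mm10. Which of them made the table, and with which annotation, is not stated. Groups come from the sample titles, which fit the age and treatment fields, since the letter key in the adult vehicle descriptions names both treatments.

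Counts were rounded, and levels are CPM of library totals. edgeR 4.0.16 (R 4.3.3; TMM scaling, filterByExpr with minimum counts of 10 per library and 15 in total, robust quasi-likelihood F test) was fitted by group, over 46 libraries for IP against supernatant and over the 23 of a fraction otherwise, with Benjamini-Hochberg adjustment over all genes tested and calls at an adjusted p under 0.05. The scripts were tested on simulated counts. Alternatives were DESeq2 1.42.0, limma 3.58.1 (voom with sample quality weights), RLE scaling, no filter, a replicate block, a term for the last 10 sample numbers, the compared groups alone and leave-one-out. The block was the pair of IP and supernatant in the fit of 46 libraries, and the replicate number across groups in the fits of 23. Leaving out the last 10 sample numbers was added after seeing the data. The no-Cre pair entered no fit. Intervals of counts cover counting error only.

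An IP and a supernatant of the same condition and number were taken as a pair, because a depleted supernatant is what its IP left. No label says so, and the main fit of 46 libraries left this pairing out. Their deviations correlated at a median of 0.0986 (-0.0747 to 0.336, 23 pairs, 11 over 0.1), and 17 IPs correlated best with their own supernatant. Numbers tie nothing across groups within a fraction (median 0.022), so the block in the age and DHT comparisons is an arbitrary grouping.

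The members and gene lists were chosen with earlier results of these data known. Genes named are the 6 members, the 3 genes most correlated with a member, the GnRH neuron markers and list genes. The rule for list genes was the 2 to 4 with the smallest adjusted p per list and comparison. Further list genes are named outside this rule, with their values known. Predicted genes were not named, and some single-gene results are not reported here.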

Additional observations from a re-analysis of the deposited data

Results flagged for a closer look

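Of 48 combinations of a receptor and a group, 4 held a library whose gap to the next was larger than Dixon's 95% limit for its group. For normally distributed values, chance alone gives about 1 in 20. The IP levels of Esr2 and Gpr30 spread far more widely (within-group CV of 169% and 105%), and the rate over genes of like level was not computed. All 4 were the highest value of an adult IP group. Esr2 stood at 8.427 CPM in adult vehicle IP replicate 2, where the other 4 libraries were at or below 0.746 CPM, and at 7.462 CPM in adult DHT IP replicate 1, where the next was 0.526 CPM. Nr3c2 stood at 16.37 CPM in adult vehicle IP replicate 2, the same library as the first, above 6.61 CPM in the next. Gpr30 stood at 2.052 CPM in adult vehicle IP replicate 4, where the other 4 libraries had at most 0.0256 CPM. That library of Esr2 and Nr3c2 also held the highest Esr1 level of any library, at 45.8 CPM.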

How the results depend on the processing

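The 3 calls for IP against supernatant became 5 with limma-voom and with the replicate block, and 1 without the last sample numbers. Over all genes, 46.1% were called in the main fit, 56.4% with the block and 40.2% without those libraries. limma-voom called 9999 of 16660 genes, beside 7684 in the main fit. The 6 age calls in supernatant became 2 with the term for the last sample numbers and 2 without those libraries. The all-gene share went from 36.1% to 28.6% and 27.7%. The 1 age call in IP became 2 with DESeq2 and 0 with RLE scaling, no filter, limma-voom, the block, the term and without those libraries. There the all-gene share was 15.1% in the main fit, 14.7% with the block, 11% with the term and 9.03% without those libraries. DESeq2 called 2914 and limma-voom 2635 genes, beside 2402 in the main fit. With vehicle alone, 1 age call in supernatant became 2 with DESeq2, RLE scaling, limma-voom, the block and the 2 groups alone. With DHT alone, 3 became 5 with limma-voom and the block, 1 with no filter, the groups alone or without the last sample numbers, and 0 with the term. In young vehicle mice, 1 IP call became 2 with DESeq2, the block and the term, 3 with limma-voom and the groups alone, and 0 without the last sample numbers. In young DHT mice, 1 became 2 with the groups alone and 0 without those libraries, and in adult vehicle mice, 1 became 2 with the block and 0 with the groups alone. The block changed no call of the DHT comparisons. For the single conditions and treatments, all-gene shares under most of these settings were not computed. The receptor counts are therefore not read as results about the receptors.

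Signs turned as follows, and the cause was not tested. For IP against supernatant, Esr2 was -1.30 with limma-voom and -1.22 with the block. For age in IP, Esr2 was -1.22 with limma-voom and -0.94 with the block, Pgr 0.0025 with no filter, and Nr3c1 -0.047 with the term and -0.047 without the last sample numbers. For DHT in young supernatant, Esr1 was 0.0068 with limma-voom, 0.065 with the term and 0.19 without the last sample numbers, where Nr3c1 was 0.0065 and Gpr30 -0.012. In young IP, Esr2 was -0.46 and Pgr 0.23 without those libraries. In adult IP, Esr1 was 0.72 with limma-voom and 0.51 with the block, and with limma-voom Esr2 was 0.19 and Pgr 0.026. For age with vehicle, Nr3c2 in supernatant was -0.042 without the last sample numbers. For the age difference between fractions, Esr1 was -0.055 with limma-voom and Esr2 0.16 without those libraries.

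Leaving out 1 library at a time gave these ranges. For IP against supernatant, Esr2 ran from -0.53 to 0.26. By condition, counts ran from 0 to 1 (young DHT), 1 to 2 (adult vehicle) and 0 to 1 (adult DHT), and Nr3c2 from -0.74 to 0.013 (adult vehicle) and -0.58 to 0.11 (adult DHT). For age in IP, Esr1 ran from 0.71 to 1.46, Esr2 from -0.80 to 0.87, Pgr from -0.11 to 0.10 and the count from 0 to 2. For age in supernatant, counts ran from 1 to 3 with vehicle and 1 to 5 with DHT, and Nr3c2 with vehicle from -0.0013 to 0.14. For the age difference between fractions, the count ran from 0 to 1 (Gpr30, without adult vehicle IP replicate 4), Esr2 from -1.47 to 0.21 and Nr3c1 from -0.14 to 0.070. For DHT in young supernatant, Esr1 ran from -0.14 to 0.099, Nr3c1 from -0.086 to 0.019 and Gpr30 from -0.061 to 0.27. In adult supernatant, Esr1 ran from -0.20 to 0.035, Esr2 from -0.13 to 0.16 and Nr3c1 from -0.011 to 0.067. In young IP, Pgr ran from -0.23 to 0.093. In adult IP, Esr1 ran from -0.59 to 1.02, Esr2 from -3.04 to 2.35, Pgr from -0.38 to 0.030 and Nr3c2 from -0.17 to 0.83. Group levels moved by less than 1 SD with TMM-scaled library sizes in all 48 cases. Esr2 and Gpr30 had 3 counts or fewer in 2 and 10 of the 23 IP libraries, where their levels cannot be told from 0, and at least 14 and 36 counts in every supernatant, at like totals (medians of 39475121 counts in IP and 40344899 in supernatant).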

Other observations

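The receptors also varied with each other across the 23 supernatants, which share depth, the age difference and the split by sample numbers. Esr1 and Nr3c1 were the closest pair (Pearson r = 0.83, Spearman rho = 0.82), followed by Nr3c1 and Nr3c2 (0.64 and 0.56) and by Esr2 and Pgr (0.63 and 0.76). Gpr30 ran against each of the other 5, from r = -0.27 with Nr3c2 to -0.54 with Nr3c1. These values are descriptions over 15 pairs of genes.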
